A study of Mus musculus with 13 samples.

Results

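The Fc gamma receptors, the adaptors that carry their signal and the related receptor Trem2 were followed through spontaneous immortalization of mouse embryonic fibroblasts (MEFs). The 8 genes Fcgr1, Fcgr2b, Fcgr3, Fcgr4, Fcgrt, Fcer1g, Tyrobp and Trem2 were taken by symbol, a choice made with earlier results of these data known, and each matched 1 of the 55487 gene identifiers in both deposited tables of raw counts. MEFs are cells grown out of mouse embryos, and the study let them pass through senescence in serial culture until colonies of proliferating cells gave immortalized lines. Poly-A RNA was sequenced from 13 libraries. There were 3 wild-type (WT) primary cultures (clones 3, 4 and 5) and the 3 immortalized lines grown from them, with 1 line per clone number. The WT primary cultures came from different embryos, as the study's methods state. Under the label Prkd3-/- were 3 primary cultures (clones 13, 14 and 15) and 4 immortalized lines (13, 13a, 14 and 15). The labels name no agent in any group and describe a move to medium richer in serum at senescence for all lines, and every immortalized line was a survivor of 1 culture, so that a group of lines is a set of separate outcomes. How lines 13 and 13a relate beyond their number, and the age of the embryos, is not given in the sources used here.

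Fc gamma receptors are surface proteins of macrophages and other leukocytes that bind the constant part of IgG. Fcgr1 (the high-affinity receptor), Fcgr3 and Fcgr4 activate cells through the adaptor Fcer1g, the common gamma chain, whose cytoplasmic ITAM motif recruits the kinase Syk, whereas Fcgr2b carries an inhibitory ITIM motif of its own and recruits phosphatases such as Inpp5d (SHIP1). Tyrobp (DAP12) is the second ITAM adaptor of myeloid cells and pairs with Trem2, a receptor for lipids and apolipoproteins. Fcgrt encodes the neonatal Fc receptor FcRn, a relative of class I molecules that pairs with B2m inside endosomes, has no ITAM, and is found in many cell types.

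Library totals ranged from 35273408 to 100441756 counts, so that 3 counts, used below as the lower limit of detection, stood for 0.0277 to 0.0842 CPM. CPM, a count scaled to the size of its library so that libraries of different depth can be compared, was corrected by TMM factors over the 13 libraries, and these limits cover counting error only. Summed levels of 10 fibroblast markers lay between 30899 and 94950 CPM in all libraries, so the labelled cell type was met by its markers. The summed level of 15 macrophage markers (Lyz2, Csf1r, C1qa, Cd68, Itgam and others) was 1760 to 1811 CPM in WT primary cultures, 67.7 to 177 in WT lines, 190 to 2335 in primary cultures labelled Prkd3-/- and 15.5 to 381 in their lines. All 15 were detected in each library but line 13, in which 8 were at 0 (Adgre1, C1qa, C1qc, Cx3cr1, Itgam, Mrc1, Ptprc and Spi1). Prkd3 itself was still counted under the label Prkd3-/-, at 33.6 to 43.2 CPM in the primary cultures against 69.2 to 73.7 in WT, and counts per gene cannot show the loss of single exons. In bulk RNA, fewer cells of a type and less RNA per cell cannot be told apart.

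The genes sit at 5 places of the mouse genome (build GRCm38). Fcgr2b (chr1:170958617-170976547, minus strand), Fcgr4 (chr1:171018920-171029761, plus strand), Fcgr3 (chr1:171051174-171064935, minus strand) and Fcer1g (chr1:171229572-171234365, minus strand) share a stretch of 275749 bases on chromosome 1. Fcgr1 lies alone on chromosome 3 (chr3:96282909-96293969, minus strand) and Trem2 on chromosome 17 (chr17:48346401-48354147, plus strand). Chromosome 7 carries Tyrobp (chr7:30413760-30417585, plus strand) and Fcgrt (chr7:45092990-45103851, minus strand) far from each other. Fcgr2b and Fcgr3 are close relatives, and 44 of the 1733 different 100-base stretches of Fcgr3 transcripts (2.54%) also occur in Fcgr2b. The paper counted uniquely mapped reads for the WT data, so a small part of the reads of both genes may be missing there. Of the exon bases of Fcgr2b, 2.68% also belong to the antisense gene Gm38204, which had no count in any WT library.

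The bases before the starts of the receptor genes are shown because most of these genes moved together, and because PU.1 (Spi1), the factor that defines macrophages, binds a core of the letters GAGGAA. The core was searched on both strands of RefSeq promoter windows (GRCm38.p6), from 250 bases before to 50 bases after each start, of which 28.3% of 32851 held it. Windows were matched for 7 of the 8 genes (all but Tyrobp), and 4 of these 7 held the core, each as its reverse complement TTCCTC, shown in capitals. The first letter stood 55 bases before the start in Fcgr1, 40 in Trem2, 22 in Fcgr4 and 6 in Fcgr3, where a second RefSeq start puts the same letters at 15 bases. The windows of Fcgr2b, Fcer1g and Fcgrt did not hold these letters, although Fcgr2b and Fcer1g were also lower in every WT line than in every WT primary culture. A match of letters describes the window and is no measured site. The 100 bases that end just before the start are given 5′ to 3′ on the strand of each gene. They are shown for the 4 genes with the core and for Fcgrt, which lacks it, while those of Fcgr2b and Fcer1g are not printed. A link between the core and the RNA levels was not tested.
Fcgr1 (chr3:96293970-96294069): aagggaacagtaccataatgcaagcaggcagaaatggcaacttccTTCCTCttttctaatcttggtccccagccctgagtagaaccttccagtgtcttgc
Fcgr3 (chr1:171059404-171059503): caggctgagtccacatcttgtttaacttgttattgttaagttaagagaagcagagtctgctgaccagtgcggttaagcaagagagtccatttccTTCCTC
Fcgr4 (chr1:171018826-171018925): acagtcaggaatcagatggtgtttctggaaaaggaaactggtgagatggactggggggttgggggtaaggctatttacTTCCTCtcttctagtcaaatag
Trem2 (chr17:48346301-48346400): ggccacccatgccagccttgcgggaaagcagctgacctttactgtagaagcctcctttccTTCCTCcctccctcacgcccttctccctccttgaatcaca
Fcgrt (chr7:45103823-45103922): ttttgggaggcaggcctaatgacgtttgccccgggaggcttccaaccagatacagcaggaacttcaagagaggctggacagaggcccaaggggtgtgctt

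In WT primary MEFs both adaptors were the most abundant of the 8 genes per length. Over the 3 cultures, the mean level per kilobase of annotated exon was 58.1 ± 1.96 CPM (SD, n = 3) for Tyrobp and 57.7 ± 0.819 for Fcer1g, whose ranges overlapped. Next were Fcgrt (28.6 ± 0.802), Fcgr3 (16.8 ± 1.82), Fcgr1 (5.27 ± 0.591) and Trem2 (4.15 ± 0.0896), each above the next in all 3 cultures. Fcgr2b (0.843 ± 0.190) and Fcgr4 (0.613 ± 0.0613) were lowest and overlapped each other. Lengths count every annotated exon base, which lowers the values of genes with long alternative exons such as Trem2 and Fcgr2b. The order changed in the WT lines, where Fcgrt came first at 23.3 ± 12.9 CPM per kilobase and Fcer1g (3.21 ± 2.74) and Tyrobp (2.31 ± 1.28) followed, below Fcgrt in all 3 lines.

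**Figure D1:**
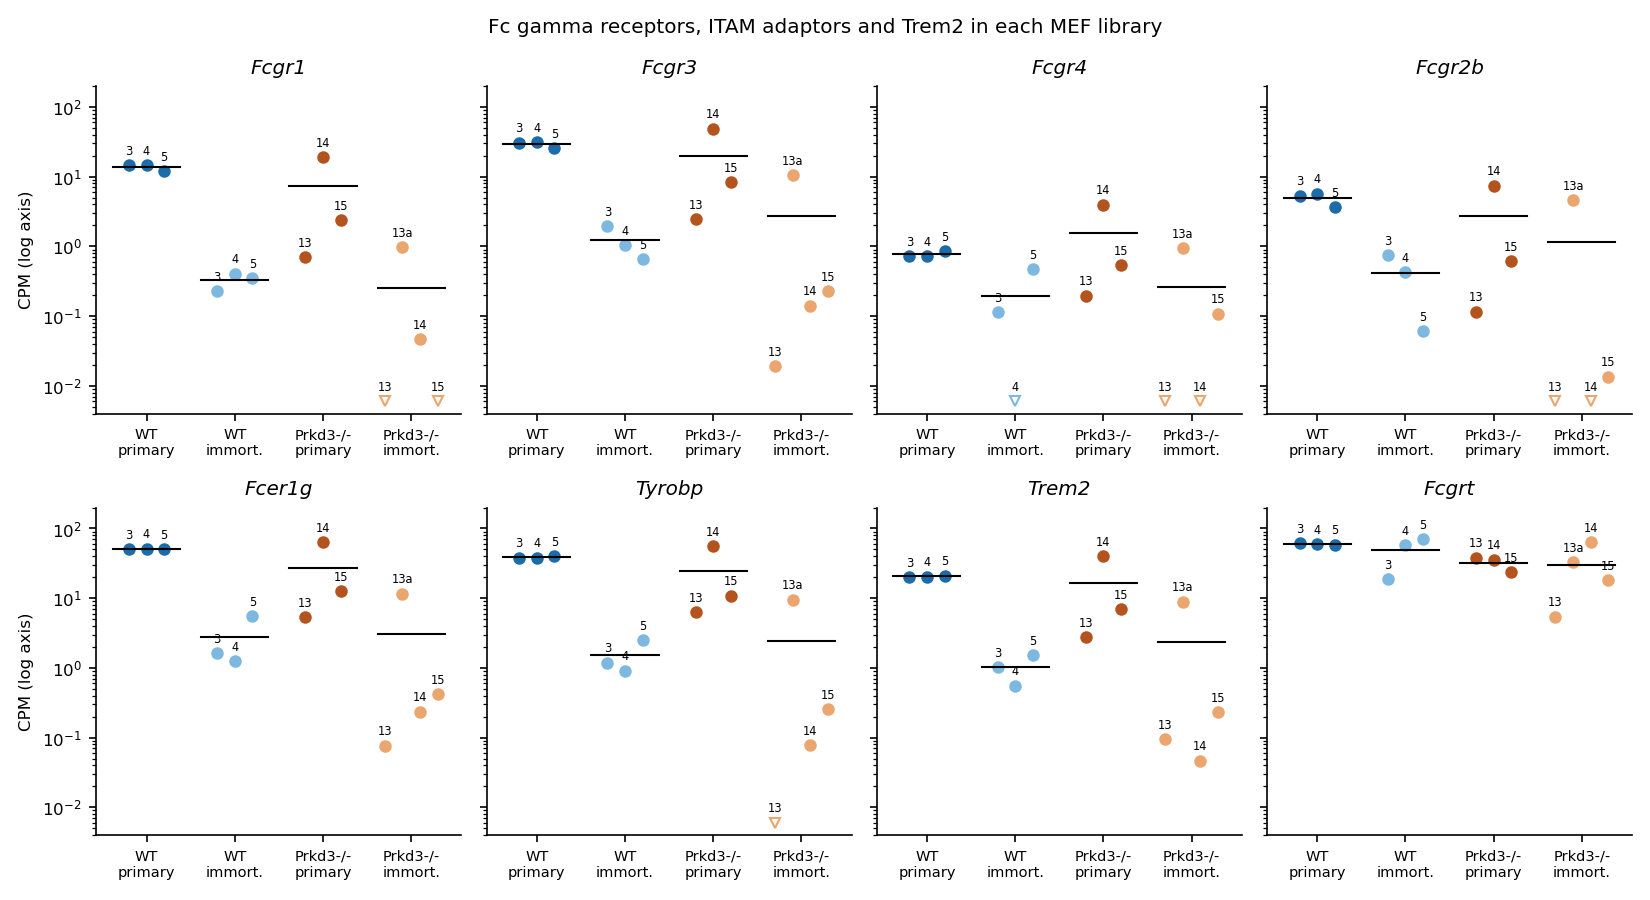
Level of each gene in every library, as TMM-scaled CPM on a log axis (points, numbered by clone or line; black bars, group means; open triangles, libraries with a count of 0, drawn at the bottom). All genes but Fcgrt sit lower in the 3 WT lines than in the 3 WT primary cultures, while among libraries labelled Prkd3-/- primary culture 14 and line 13a stand above the others.

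The activating receptors were compared first, to ask what immortalization did to them in WT cells. A gene was called when edgeR's quasi-likelihood test gave an adjusted p-value under 0.01 over all genes tested, with a |log2FC| of at least 1. Fcgr1 was counted at 14.5, 14.6 and 11.9 CPM in primary cultures 3, 4 and 5 and at 0.226, 0.406 and 0.351 in the lines of the same numbers. All lines were far below all primary cultures, and Fcgr1 fell by 5.37 on the log2 scale (SE 0.27, edgeR adjusted p = 0.000585), or 41.5-fold, which was the largest change of the 8 genes.

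Fcgr3, the most abundant of the 4 classical receptors, had 30.7, 31.1 and 25.4 CPM before and 1.95, 1.05 and 0.656 CPM after. The groups did not overlap, and Fcgr3 fell by 4.58 (SE 0.44, adjusted p = 0.00502). Fcgr4, which binds IgG2 subclasses, was rare from the start, at 0.721, 0.729 and 0.858 CPM in primary cultures, or 47 to 67 counts. Its lines held 0.113, 0 and 0.473 CPM. Each line was under each culture, but the lines spread widely and the log2FC of -1.95 (SE 1.05) did not pass (adjusted p = 0.378).

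The inhibitory receptor Fcgr2b was at 5.34, 5.68 and 3.63 CPM in primary cultures and at 0.741, 0.423 and 0.0610 in lines 3, 4 and 5. Line 5 held 4 counts, and the spread of the lines was 12.2-fold. The groups were again apart, with a log2FC of -3.58 (SE 0.80) that missed the threshold (adjusted p = 0.0691). Among the 4 classical Fc gamma receptors, 2 were thus called lower in WT lines, and the remaining 2 had negative log2FC values with larger errors.

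Both ITAM adaptors were near the bottom of their primary level in the WT lines. Tyrobp went from 38.0, 38.1 and 40.3 CPM to 1.19, 0.914 and 2.52, a fall of 4.65 (SE 0.43, adjusted p = 0.00442). Fcer1g had 50.1, 51.3 and 50.0 CPM in primary cultures and 1.61, 1.25 and 5.57 in the lines. The wider scatter of Fcer1g, with line 5 above the other two, gave a log2FC of -4.16 (SE 0.64) whose adjusted p of 0.0217 lay above the threshold. Trem2, the partner of Tyrobp, dropped by 4.31 (SE 0.38, adjusted p = 0.00387), from 20.2, 20.4 and 21.0 CPM to 1.02, 0.559 and 1.51. Line 5 was the highest of the 3 lines for both adaptors, Trem2 and Fcgr4, and the lowest for Fcgr3 and Fcgr2b.

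Fcgrt was the exception. It had 61.9, 59.9 and 58.5 CPM in WT primary cultures and 18.6, 57.7 and 70.8 in lines 3, 4 and 5, so that line 3 was low and line 5 above every primary culture. Its log2FC was -0.29 (SE 0.46, adjusted p = 0.776), with overlapping groups. B2m, the light chain that FcRn needs, was at 434 to 438 CPM before and at 241, 364 and 866 after (log2FC 0.17, SE 0.47, adjusted p = 0.877), lowest in line 3 and highest in line 5 as Fcgrt was. Among lines labelled Prkd3-/- both were lowest in line 13, but B2m was highest in line 13a (524 CPM) and Fcgrt in line 14 (64.0 CPM).

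In all, 4 of the 8 genes (Fcgr1, Fcgr3, Tyrobp and Trem2) were called lower in WT lines and none higher, all 8 having passed the filter on low counts, where 1.76% of the 19836 genes tested were called lower. In 7 of the 8, every line was below every primary culture, a pattern that 17.4% of all genes tested showed. DESeq2 with the same thresholds called 6 of the 8 lower, adding Fcer1g and Fcgr2b. It called 1236 genes lower in all, 3.68% of the 33613 it took in, of which 22922 had an adjusted p-value. With the clone number as a block, which pairs each line with the culture it came from, 0 of the 8 and 0 of all genes were called, with adjusted p-values of 0.0230 for Fcgr1, 0.0292 for Fcgr3, 0.0328 for Tyrobp and 0.0359 for Trem2. In that paired fit 6 of the 8 were lower at an unadjusted p under 0.05, as were 10.1% of all genes tested, and log2FC values of the 4 stayed between -5.40 and -4.41. Leaving out any 1 of the 3 primary cultures left Fcgr1 as the only call of the 8, where 0.237%, 0.247% and 0.325% of the genes tested were called lower without cultures 3, 4 and 5. The 3 primary cultures differed little (biological coefficient of variation 5.74%, against 51.9% between the lines).

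**Figure D2:**
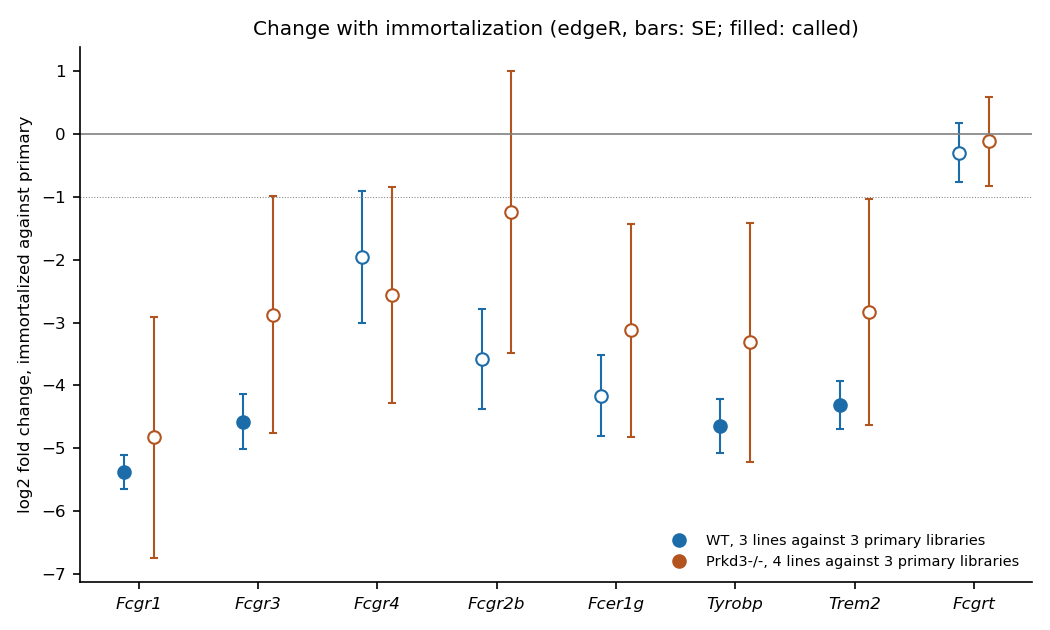
Log2FC of the 8 genes from primary to immortalized MEFs, in WT and under the label Prkd3-/- (points, edgeR estimates; bars, SE; filled, called at an adjusted p under 0.01 and |log2FC| of at least 1; dotted line, log2FC of -1). WT values lie between -5.37 and -1.95 for all genes but Fcgrt, and the bars under the label Prkd3-/- are longer throughout.

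Under the label Prkd3-/-, the primary cultures themselves were far apart. Fcgr1 was at 0.703, 19.0 and 2.36 CPM in cultures 13, 14 and 15, Fcgr3 at 2.45, 48.8 and 8.36, and Fcgr4 at 0.196, 3.95 and 0.533. In each of the 7 genes other than Fcgrt, culture 14 was the highest, culture 15 followed and culture 13 was the lowest. The ratio of highest to lowest ran from 8.99 for Tyrobp to 64.8 for Fcgr2b (0.115, 7.47 and 0.617 CPM). The summed macrophage markers followed the same order, at 190, 2335 and 462 CPM. Fcer1g (5.34, 63.0 and 12.6 CPM), Tyrobp (6.23, 56.1 and 10.9) and Trem2 (2.75, 39.8 and 6.98) moved alike, and culture 14 exceeded every WT culture in all 7 genes. Fcgrt was different here too, with 38.1, 35.7 and 23.8 CPM and a ratio of 1.60.

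The lines labelled Prkd3-/- fell into 1 line in which all 7 RNAs were readily counted and 3 that had almost none. Line 13a held 0.973 CPM of Fcgr1, 4.63 of Fcgr2b, 10.5 of Fcgr3, 0.945 of Fcgr4, 11.7 of Fcer1g, 9.48 of Tyrobp and 8.95 of Trem2. Lines 13, 14 and 15 had at most 0.0469 CPM of Fcgr1 (3 counts, in line 14), 0.0135 of Fcgr2b (1 count, in line 15) and 0.229 of Fcgr3. For Fcgr4 the most was 0.108 CPM, for Fcer1g 0.418, for Tyrobp 0.256 and for Trem2 0.229, each in line 15. Summed over the 7 genes, line 13 had 10 counts in all, line 14 had 35, line 15 had 93 and line 13a had 3438. The macrophage markers summed to 381 CPM in line 13a and to 15.5 to 26.7 CPM in lines 13, 14 and 15, and their part in the values of the 7 genes was not tested.

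Line 13a did not hold the receptors in the proportions of the primary cultures. Against the mean of the primary cultures labelled Prkd3-/-, it held 13.3% of Fcgr1 but 38.9% of Tyrobp, 43.2% of Fcer1g, 52.7% of Fcgr3, 54.1% of Trem2, 60.6% of Fcgr4 and 169% of Fcgr2b. The macrophage markers were at 38.3%. These means are carried by culture 14, the highest of the 3. Line 13a was above culture 13, the primary culture of its own number, in all 7 genes. It had 1.38 times the Fcgr1, 1.52 times the Tyrobp, 2.19 times the Fcer1g, 3.25 times the Trem2, 4.26 times the Fcgr3, 4.83 times the Fcgr4 and 40.2 times the Fcgr2b, the last against 10 counts in that culture, beside 2.01 times the macrophage markers. Fcgr2b made up 9.8% of the summed CPM of the 7 genes in line 13a and 0.6% to 3.5% in all 6 primary cultures, and it was also high in WT lines 3 and 4 (10.8% and 9.2%) but not in WT line 5 (0.5%, 4 counts).

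**Figure D3:**
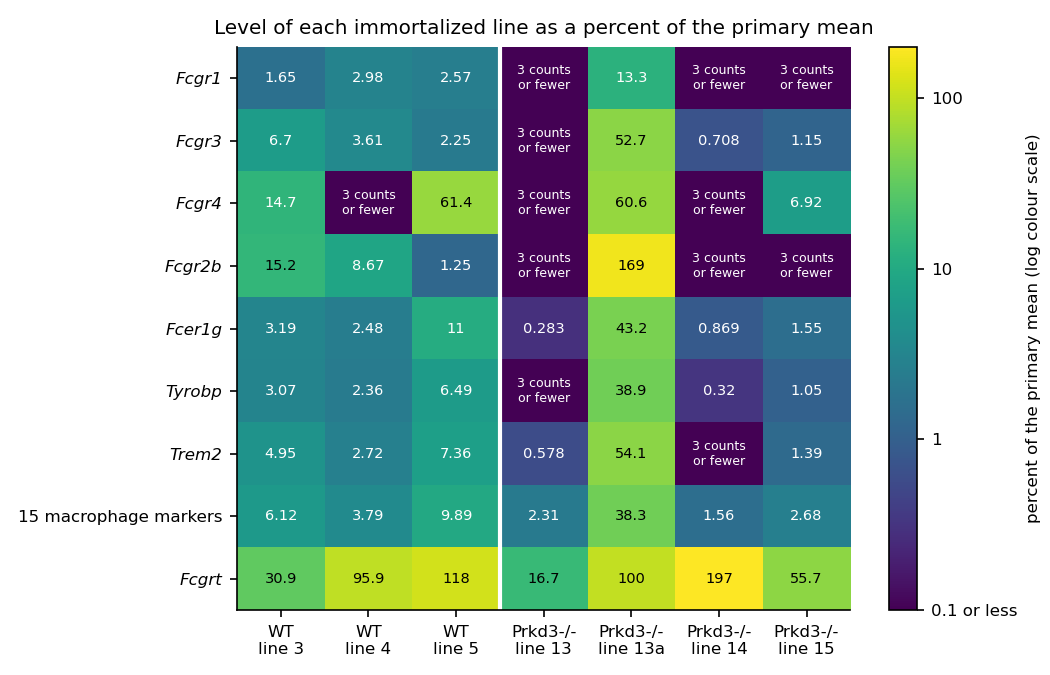
Level of each immortalized line as a percentage of the mean of the 3 primary cultures with the same genotype label, for the 8 genes and for the sum of 15 macrophage markers (colour, log scale; cells with 3 counts or fewer carry no percentage). WT lines hold 1.25% to 15.2% of the primary mean outside Fcgr4 and Fcgrt, line 13a holds 13.3% to 169% of the 7 genes, and the Fcgrt row runs from 16.7% to 197%.

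With such spread in both groups, no gene of the 8 was called between primary and immortalized MEFs labelled Prkd3-/-, and edgeR called none of the 20298 genes tested (0.0%). At an unadjusted p under 0.05, 1 of the 8 (Fcgr1) was lower, against 4.34% of all genes tested, and 1331 genes passed in either direction. DESeq2 called 190 genes but none of the 8, of which 2 (Fcer1g and Fcgr1) were lower at an unadjusted p under 0.05, as were 3.94% of the genes it took in. The log2FC values were -4.83 (SE 1.92) for Fcgr1, -3.31 (SE 1.91) for Tyrobp, -3.12 (SE 1.70) for Fcer1g and -2.87 (SE 1.88) for Fcgr3. Trem2 had -2.83 (SE 1.80), Fcgr4 -2.56 (SE 1.72), Fcgr2b -1.24 (SE 2.24) and Fcgrt -0.11 (SE 0.71). Estimates were thus below 0 for all 8, with SE of at least 1.70 for all but Fcgrt, and no gene had every line under every culture (5.26% of all genes tested did). Without line 13a, Fcgr2b did not pass the filter on low counts. Of the other 7, 6 were lower at an unadjusted edgeR p under 0.05, as were 6.07% of the genes tested. Still none was called (lowest adjusted p 0.163, Fcer1g), and log2FC values of the 6 ran from -8.73 (Fcgr1) to -5.31 (Fcgr4). Line 13a was the highest line for these 6 genes, so leaving it out lowered the mean of the lines. Lines 13, 14 and 15 held 0, 3 and 0 counts of Fcgr1 and 0, 0 and 8 of Fcgr4. The size of such log2FC values depends on the fit.

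Fcgrt in these lines ran its own course, at 5.42, 32.6, 64.0 and 18.1 CPM in lines 13, 13a, 14 and 15. Line 14, with 35 counts of the other 7 genes together, had the highest Fcgrt level of the group, 1.80 times that of culture 14. Line 13 had the lowest, 0.142 times that of culture 13.

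Whether the change differed between the genotype labels was asked with an interaction term in a model of the 13 libraries together. None of the 8 passed an adjusted p under 0.05, nor did any of the 21197 genes tested (0.0%), while 841 genes (3.97%) and 0 of the 8 had an unadjusted p under 0.05. The differences in log2FC (Prkd3-/- minus WT) lay between -0.59 (SE 2.25) for Fcgr4 and 2.34 (SE 2.76) for Fcgr2b. Errors of that size leave room for large differences either way. Without line 13a the differences of the 7 genes were all negative, from -5.05 for Fcgr2b to -2.59 for Fcer1g. Of them, 2 (Fcgr2b and Tyrobp) had an unadjusted edgeR p under 0.05, at which 5.68% of all genes tested passed and 2.75% were negative, with none called. Lines 13, 14 and 15 held 0, 0 and 1 counts of Fcgr2b and 0, 5 and 19 of Tyrobp. Both differences thus rest on few counts, after the line with the highest levels was left out.

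Primary cultures of both genotypes were set side by side to give the level before immortalization. Genotype and deposited table are the same division, so their parts cannot be told apart. None of the 8 genes was called, where 0.765% of 20403 genes were. Fcgrt came nearest, at 32.5 ± 7.67 CPM (SD, n = 3) against 60.1 ± 1.69 in WT, with every culture labelled Prkd3-/- below every WT culture (log2FC -0.87, SE 0.17, edgeR adjusted p = 0.0405). For the other 7 the log2FC ran from -0.87 (Fcer1g) to 1.08 (Fcgr4), with SE of 0.78 to 1.23. Culture 14 decided this comparison, since without it all 8 were lower under the label Prkd3-/- at an unadjusted p under 0.05, as were 22.5% of all genes tested. Fcgr1 (log2FC -3.34), Fcgr2b (-4.09) and Tyrobp (-2.21) were then called, where 5.55% of all genes were called lower.

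Across the 13 libraries the 7 genes other than Fcgrt varied together. Pearson's r of log2 CPM was 0.769 to 0.990 over their 21 pairs, and 0.313 to 0.570 between Fcgrt and each of the 7. These values describe libraries that share states and cultures, and carry no test. The sum of the 7 was 153 to 162 CPM in WT primary cultures and 6.85, 4.60 and 11.1 in WT lines 3, 4 and 5. It was 17.8, 238 and 42.4 CPM in cultures 13, 14 and 15 and 0.191, 47.1, 0.547 and 1.25 in lines 13, 13a, 14 and 15. The plot against macrophage markers shows one rising band for this sum and none for Fcgrt.

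**Figure D4:**
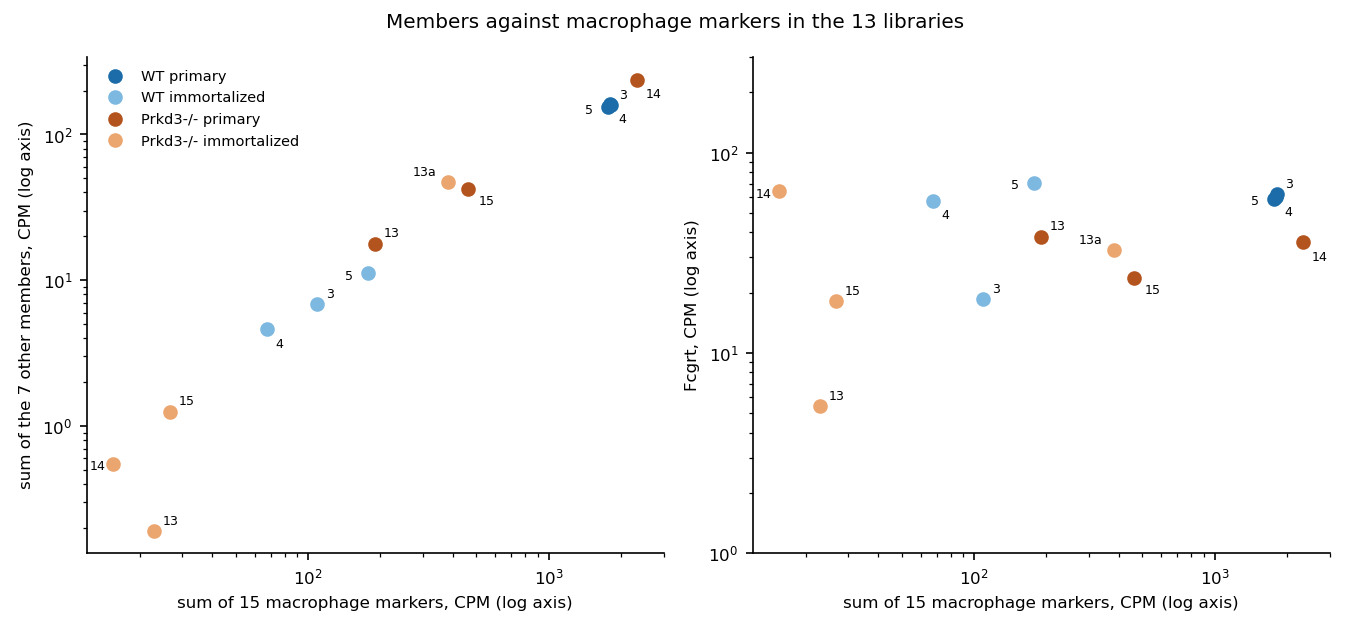
Sum of the 7 genes other than Fcgrt (left) and Fcgrt alone (right) against the sum of 15 macrophage markers in each of the 13 libraries, all in CPM on log axes (points coloured by group and numbered by clone or line). On the left the libraries run from line 13 at 0.191 CPM to primary culture 14 at 238 CPM, while on the right line 14 has the fewest markers and 64.0 CPM of Fcgrt.

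Levels were also set against the summed macrophage markers, as CPM of a gene per 100 CPM of the 15 markers, a ratio that stays the same when both move alike. Fcgr1 had 0.675 to 0.813 in WT primary cultures and 0.206, 0.600 and 0.198 in WT lines. Under the label Prkd3-/-, it had 0.371 to 0.812 in the cultures and 0.255 or 0.303 in lines 13a and 14, with none counted in lines 13 and 15. In both sets each line was under each culture by this ratio, but line 14 held only 3 counts of Fcgr1, the lower limit of detection. The ratios of the other receptors went several ways. Fcgr2b was at 0.206 to 0.317 in WT cultures and higher in lines 3 and 4 (0.677 and 0.625) but lower in line 5 (0.0345), and Fcgr4 at 0.0398 to 0.0487 before and 0.103, 0 and 0.267 after. Fcgr3 overlapped between WT cultures (1.44 to 1.73) and lines (1.78, 1.55 and 0.371). In line 13a these 3 genes were above all cultures labelled Prkd3-/-, at 1.21 for Fcgr2b (cultures up to 0.320), 2.74 for Fcgr3 (up to 2.09) and 0.248 for Fcgr4 (up to 0.169). Of the adaptors, Fcer1g gave 2.77 to 2.86 in WT cultures and 1.47, 1.85 and 3.15 in WT lines, which overlapped. Tyrobp was at 2.10 to 2.29 before and 1.09 to 1.42 after in WT, and Trem2 at 1.11 to 1.19 before and 0.825 to 0.928 after. Neither overlapped by the sum of all 15 markers, although the Trem2 value of line 5 (0.854) was taken over a sum led by Adgre1. Under the label Prkd3-/-, line 13a lay above the cultures for Fcer1g (3.06 against 2.70 to 2.81) and Trem2 (2.35 against 1.45 to 1.71) and within them for Tyrobp (2.48, cultures 2.36 to 3.29). Lines 13, 14 and 15 were below every culture of that label for all 3 genes, with at most 1.57 for Fcer1g, 0.960 for Tyrobp and 0.859 for Trem2. The values of these lines rest on few counts: 4, 15 and 31 of Fcer1g, 0, 5 and 19 of Tyrobp and 5, 3 and 17 of Trem2. The marker sum itself differed in make-up, since Csf1r alone gave 70.8%, 53.7% and 40.8% of it in lines 13, 14 and 15, whereas Lyz2 led in all 6 primary cultures. In WT line 5 Adgre1 led with 31.1% of the sum, at 55.0 CPM against 2.16 and 2.15 in WT lines 3 and 4. The separations given here hold for the sum of all 15 markers and need not hold for a sum without Csf1r or Adgre1. These ratios were chosen with the values known and were not tested, and the share of all genes with such separation was not computed.

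None of the other genes that lie between the receptors on chromosome 1 was called in WT cells. From the first base of Fcgr2b to the last of Fcer1g, 17 genes are annotated and 11 were tested, of which Fcgr3 was the only 1 called. Sdhc, a subunit of succinate dehydrogenase, had 103 ± 5.08 CPM (SD, n = 3) in primary cultures and 86.4 ± 7.07 in the lines (log2FC -0.25, adjusted p = 0.218). Tomm40l (24.2 ± 1.06 and 22.0 ± 0.653 CPM, log2FC -0.14) and Nr1i3 (18.9 ± 0.534 and 16.7 ± 0.586 CPM, log2FC -0.17) stood within a small range of their primary level. Pcp4l1 alone of the non-members tested there was much lower in the mean, 24.7 against 2.29 CPM, and missed the threshold (log2FC -3.43, SE 0.92, adjusted p = 0.113). This interval was chosen after its values were seen.

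Downstream of the ITAM, part of the pathway was called lower in WT lines and Syk was not. Syk, the kinase that binds phosphorylated ITAMs, was at 17.5, 19.2 and 18.8 CPM in WT cultures and 18.3, 22.2 and 8.66 in the lines (log2FC -0.18, SE 0.34, adjusted p = 0.821). Of 28 kinases and adaptors after the ITAM, all tested, 6 were called lower (Btk, Vav3, Lat2, Card9, Pik3cd and Was) and none higher, with a median log2FC of -1.40 beside 0.04 over all genes tested. The 4 most abundant over the 6 primary cultures of both labels, Rac1, Arpc1b, Src and Grb2, are used by most cell types and were not called. Rac1, a GTPase that drives phagocytosis among other tasks, had 437 ± 14.6 CPM before and 429 ± 38.3 after (log2FC -0.03).

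Of 18 inhibitory receptors and phosphatases tested, 8 were called lower: Ptpn6, Inpp5d, Dok2, Dok3, Pirb, Lilrb4a, Cd300a and Lair1 (list median -3.52). Ptpn6 (SHP-1), the phosphatase that ITIM receptors recruit in blood cells, fell by 4.30 (SE 0.20, adjusted p = 0.000471), and Inpp5d, the lipid phosphatase bound by Fcgr2b, by 4.35 (SE 0.43, adjusted p = 0.00541). Their widely expressed relatives Ptpn11 (log2FC 0.22) and Inppl1 (-0.03) and the kinase Csk (0.02) were not called, nor was Sirpa, the receptor for CD47, at 169 ± 11.9 CPM before and 53.1 ± 25.4 after (SD, n = 3, log2FC -1.67, SE 0.35, edgeR adjusted p = 0.0554). Spi1 was at 31.9, 29.9 and 34.6 CPM before and 0.532, 0.880 and 3.05 after, a log2FC of -4.43 (SE 0.71) with an adjusted p of 0.0248, not called.

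Among 15 other receptors that pair with Tyrobp or Fcer1g, 10 were tested, and 4 were called lower (Clec5a, Clec4e, Clec4d and Pira2) with none higher. The list median was -4.70, or -3.95 with Sirpb1a, listed at 0 in all WT lines, set to its bound of at least 11.5-fold lower. Pira2 (0, 0 and 0.0305 CPM in lines 3, 4 and 5) and Sirpb1b (0, 0 and 0.0152) were under the limit of 3 counts there. Such genes passed the filter through their primary cultures alone, so they could hardly come out other than lower, and the median leans down. Clec5a, a Tyrobp partner, had 17.5 CPM in the mean of WT cultures and 0.535 in the lines (log2FC -5.03). Fcer1a, the IgE-binding chain that also uses Fcer1g, had no count in any library. Of 9 other immunoglobulin Fc receptors only Trim21, a cytosolic antibody receptor, passed the filter, and it was not called (log2FC -0.53). Mast cell, NK and T cell and neutrophil markers summed to at most 1.14 CPM in every library, and B cell markers to at most 3.47.

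Few genes around Trem2 and none around Fcgrt were called. Of 14 tested genes of the TREM2-dependent macrophage and microglial state, 2 were called lower (Clec7a and Lilrb4a, the latter also counted above), and the most abundant ones, Spp1 (log2FC -0.81), Ctsd (-0.31), Ctsb (-0.65) and Axl (0.41), were not. Fibroblasts also make several of these. None of 5 TREM2 ligands and sheddases was called. The 4 most abundant of them over all primary cultures were App (log2FC -0.15), Adam10 (0.12), Adam17 (-0.48) and Apoe, a lipid carrier bound by TREM2, which had 33.0 ± 6.31 CPM before and 4.65 ± 3.79 after (SD, n = 3, log2FC -2.82, SE 0.61, edgeR adjusted p = 0.0616). None of 7 tested genes for the partner and the recycling of FcRn was called (median 0.07), nor any of 7 class I relatives of Fcgrt (median -0.84). For comparison, 8 of the 15 macrophage markers were called lower (median -4.14) and 0 of 10 fibroblast markers (median 0.29). Of 4 endothelial markers tested 1 was called lower (Tek), and the list median was -3.81. Of 3 osteoclast markers tested 0 were called, with a median of -4.18, that of Acp5 (8.80 ± 3.93 CPM before and 0.480 ± 0.377 after, SD, n = 3, edgeR adjusted p = 0.0527). Under the label Prkd3-/- no gene of any list was called.

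**Figure D5:**
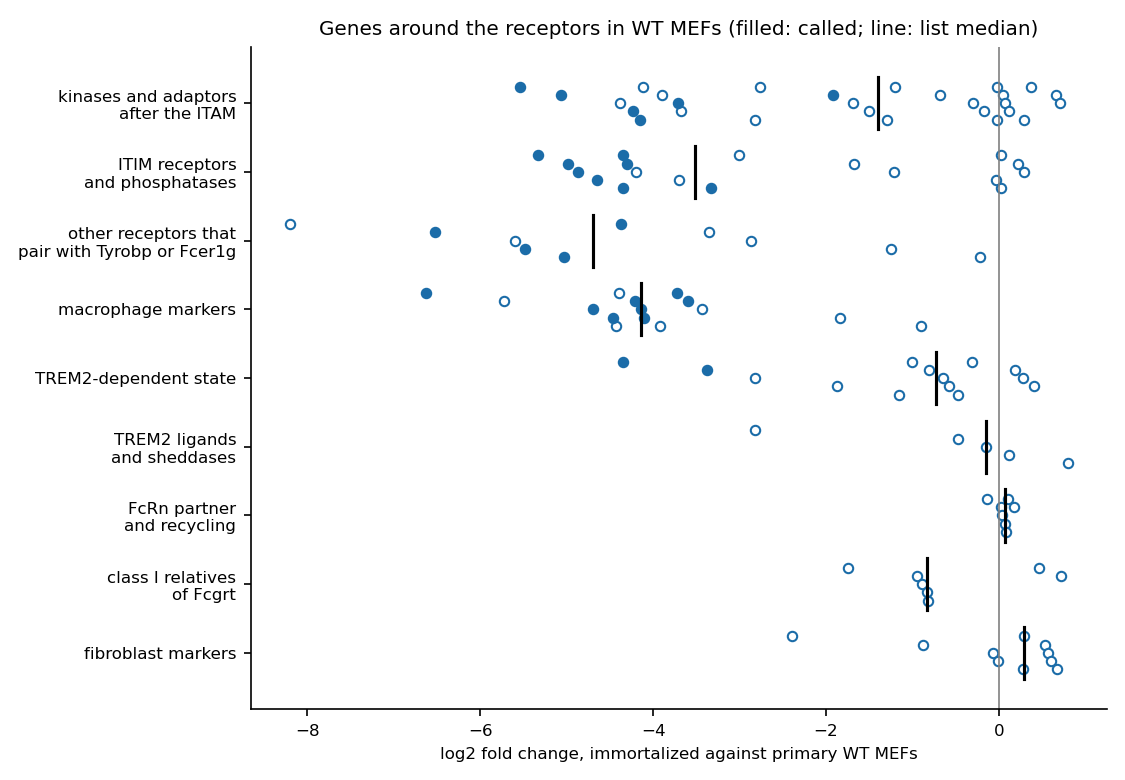
Log2FC from primary to immortalized WT MEFs of each tested gene in the lists around the receptors (points; filled, called; black lines, list medians). Called genes lie in 5 lists at log2FC values below -1.9, and the lowest point, Sirpb1a, was at 0 in every WT line, so that its position depends on the fit.

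Lastly, the genes whose log2 CPM over the 13 libraries was most like the mean of the 7 were listed by Pearson's r, among 15798 genes with a mean of at least 1 CPM. They were Cd300c2 (0.995), Gm40645 (0.992), Arhgap25 (0.991), Inpp5d (0.989) and Pld4 (0.988), followed by Themis2, Galnt6, Npy, C1qb and Kcnk13. The genes most like Fcgrt were others: Tctn1 (0.978), Ror1 (0.974), Tmem229b (0.972), Scrn3 (0.967) and Gas6 (0.966). No gene stands in both lists, and likeness over these libraries is a description.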

How the data were processed

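The authors deposited raw counts per gene in 2 tables, 1 with the 6 WT libraries and 1 with the 7 labelled Prkd3-/-. Per the file headers, the WT table was made with featureCounts 2.0.6, counting read pairs with both ends mapped, with overlaps allowed and no strand option, on Ensembl genes of GRCm38. The submitters' processing notes name FastQC 0.12.0, STAR 2.7.10a, SAMtools 1.18 and Subread 2.0.6. How the Prkd3-/- table was counted is not given in the sources used here, although it lists the same genes and lengths.

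The counts were used as deposited. Of 55487 identifiers, 55141 had a symbol. Each genotype was fitted alone in edgeR 4.0.16 (R 4.3.3, quasi-likelihood test, TMM, filterByExpr, robust estimates), the interaction on all libraries together, and p-values were adjusted over all genes tested by Benjamini-Hochberg. The thresholds were an adjusted p under 0.01 with a |log2FC| of at least 1, and 0.05 for the interaction. The SE is |log2FC| divided by the square root of F. The scripts were tested on simulated data with well-counted genes and a capped spread within groups. That test does not show how calls behave at low counts or in groups with a wider spread. Alternatives were DESeq2 1.42.0, its size factors, no filter, limma 3.58.1 with a weight per group, a block for the clone number, lines 13 and 13a summed, and each library left out. Likeness used log2 CPM with a prior count of 1.

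In WT, a line and a primary culture with the same clone number come from the same culture by label and method, so the number pairs them. Under the label Prkd3-/- the pairing rests on the clone number in the labels alone, and the source of line 13a is not stated. Same-numbered deviations from the group means correlated at -0.039 to 0.019 in WT and -0.283 to 0.142 under the label Prkd3-/-. Differently numbered pairs gave -0.032 to 0.062 in WT and -0.305 to 0.337 under that label. Line 13a had -0.283 with culture 13 and 0.337 with culture 14. Libraries of a group were compared by chi-square over genes with at least 20 counts. WT primary cultures differed by 5.25 to 12.4 times sampling noise and all other pairs by 46.7 or more. Such excess cannot exclude repeat libraries of the same culture, because sampling noise leaves out the spread that library preparation adds. Libraries were kept as separate samples by their labels, and the WT primary cultures also by the study's statement of different embryos. Where nothing says that samples are separate animals, p-values measure the spread between samples.

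The 8 genes and the lists around them were chosen with earlier results of these data known. All 8 are given with all values. Of each list, the counts and called genes are given, up to 4 genes with the highest mean in primary cultures are the ones named by rule, and B2m, Spi1, Syk, Ptpn6, Inpp5d and Prkd3 are always named. The rule for likeness was the 10 genes nearest to the mean of the 7 and the 5 nearest to Fcgrt. Called genes and the genes on chromosome 1 were named after their values were seen.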

Additional observations from a re-analysis of the deposited data

Results flagged for a closer look

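Only the lines labelled Prkd3-/- form a group of 4, the size at which 1 library can be set against the rest by Dixon's ratio (the gap of the extreme library to its neighbour over the whole range, against its critical value for 4 samples). Of 10 values tested, 9 passed, each time with line 13a as the highest. The ratios were 0.952 for Fcgr1, 0.997 for Fcgr2b, 0.980 for Fcgr3 and 0.886 for Fcgr4. Fcer1g gave 0.970, Tyrobp 0.973 and Trem2 0.980, while the sum of the 7 genes gave 0.977 and the sum of the 15 macrophage markers 0.969. Fcgrt did not pass (0.535, with line 14 highest). The critical value lets about 1 in 20 groups pass by chance only where values are normally distributed. The ratios were taken on CPM without a log scale and that condition was not checked, so this rate may not hold here. The 9 values come from the same 4 libraries, so they count as 1 observation on line 13a and not as 9.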

How the results depend on the processing

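Of the 8 genes, 4 were called lower in WT lines, 4 also with DESeq2's size factors or with no filter, 6 with DESeq2, 3 with limma (Fcer1g, Tyrobp and Trem2), 0 with the replicate block and 1 to 5 with 1 library left out (1, Fcgr1, without any 1 of the primary cultures, and 5 without line 5). Over all genes 361 were called, 1361 with DESeq2, 198 with limma, 0 with the block and 48 to 743 with 1 library left out. Under the label Prkd3-/- and for the difference between genotypes, 0 of the 8 were called in every alternative run, while DESeq2 called 190 and 37 genes of all. Between primary cultures 0 of the 8 were called, 0 to 3 with 1 library left out (3 without culture 14), and 156 genes of all, or 836 with DESeq2, 335 with no filter and 2 to 1456 with 1 library left out. Of 423 values of single genes under an alternative, 31 changed sign, 21 of them in the difference between genotypes, and the cause was not tested. Those differences turned negative with limma for Fcgr1 (-0.94), Fcgr3 (-0.19), Fcgrt (-0.0715), Fcer1g (-0.31), Tyrobp (-1.32) and Trem2 (-0.39). With the replicate block they were -0.53 for Fcgr1, -0.29 for Fcgr2b, -0.29 for Tyrobp, -0.23 for Trem2 and 0.37 for Fcgr4. With 1 library left out they ranged from -3.33 to 2.83 (Fcgr1), -5.05 to 5.30 (Fcgr2b), -2.61 to 3.59 (Fcgr3), -3.31 to 1.55 (Fcgr4), -0.50 to 0.54 (Fcgrt), -2.59 to 2.63 (Fcer1g), -3.02 to 2.85 (Tyrobp) and -2.70 to 3.26 (Trem2). Fcgrt changed sign from primary to immortalized within -0.65 to 0.10 in WT and within -0.80 to 0.24 under the label Prkd3-/- with 1 library left out, and was 0.0734 there with lines 13 and 13a summed. Fcgr2b under that label ran from -1.80 to 1.70, the highest without culture 14. Between primary cultures Fcgr3 ran from -2.53 to 0.0091, Fcgr4 from -1.23 to 1.62 and Trem2 from -2.15 to 0.23. The replicate block changed no other call of the 8 genes. Precision was lowest in lines 13, 14 and 15 under the label Prkd3-/-, with 10, 35 and 93 counts of the 7 genes at totals of 52659057 to 72695290 counts, beside 3438 of 70697218 in line 13a.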

Other observations

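In WT line 5 the receptors and adaptors stood in other proportions than in the WT primary cultures. Fcer1g made up 50.0% of the summed CPM of the 7 genes there and Fcgr3 5.9%, where the primary cultures had 31.4% to 32.6% and 16.6% to 19.3%. Lines 3 and 4 had 23.5% and 27.2% for Fcer1g, and 28.5% and 22.8% for Fcgr3. These shares rest on 425, 272 and 730 counts over the 7 genes in lines 3, 4 and 5, and each line is 1 sample.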
